A study of Mus musculus with 12 samples.

Results

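The cytosolic Hsp70 and Hsp90 machinery was followed through 10 genes on the mouse gene array, namely Hspa4, Hspa4l, Hspa8, Hsph1, Hsp90aa1, Stip1, Chordc1, Ahsa1, Bag3 and Bag4. These 10 genes, of 19938 named on the array, were matched by gene symbol to 14 of its 35556 transcript clusters. A transcript cluster is a set of probes on the array that read the same transcribed region. Hspa8 and Hsp90aa1 had 3 clusters each and the other 8 genes had 1 each, and 2 further clusters that join Hspa8 to other symbols were set aside. The genes were proposed with the difference between lactating and virgin mice already known. Their values in that comparison are therefore a description, and where a limma cutoff is named for a member it only describes the list and is no independent test.

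Septal RNA from 6 lactating mice, taken on postpartum days 6 to 8, and from 6 age-matched virgin mice was measured with 1 array per mouse. By the study's methods 2 virgin mice each were in estrus, diestrus I and diestrus II, and all mice ate breeder chow. All mice were females about 70 days old from a line bred from outbred hsd:ICR stock for high maternal aggression, so the values come from 1 selected line. Before tissue collection the lactating mice had been housed for 2 weeks with a breeder male, while the virgin mice were co-housed. All were then housed singly. The labels describe the punches as lateral septum while the study's methods describe the whole septum, and mating, pregnancy, birth, pups and lactation cannot be told apart in this design.

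Hsp70 proteins hold unfolded stretches of other proteins in a cycle of ATP binding and hydrolysis, and nucleotide exchange factors open the complex so that the client can leave. Clients such as steroid receptors and kinases pass from Hsp70 to Hsp90 through a bridging co-chaperone, and Hsp90 then closes around them in its own ATP cycle. Many of these genes are induced by heat shock factor 1, which binds inverted repeats of nGAAn units called heat shock elements.

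Heat shock elements were looked for in the RefSeq promoters of GRCm38.p6, which run from 250 bases before to 50 bases after each listed start. Of the 10 genes, 7 had a promoter there. The motif of 3 units, TTC, GAA and TTC with NN between neighbouring units, or its reverse complement GAA, TTC and GAA with the same gaps, was searched on both strands and was present in 2 of the 7, Chordc1 and Hsph1. Of all 27025 genes with a listed promoter 179 held it, or 0.662%. The shorter motif of 2 units, GAANNTTC or TTCNNGAA, each of which reads the same on both strands and which lies inside the longer motif, was present in 3 of the 7 genes, with Bag3 added. It was present in 17.0% of all genes. The promoters of Hspa8, Hsp90aa1 and Bag4 were not used here.

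The 30 bases around the motif are shown for the genes with the motif of 3 units. Whether the motif goes with the size of the group difference was not tested. Capitals mark the stretch covered by matches to the 3-unit motif, and each sequence reads 5′ to 3′ on the gene's strand. The Chordc1 window lies at chr9:18292260-18292289 on the plus strand and spans its listed start, from 7 bases before to base 23. The Hsph1 window lies at chr5:149636279-149636308 on the minus strand, at bases 8 to 37 of the downstream one of its listed starts.
Chordc1: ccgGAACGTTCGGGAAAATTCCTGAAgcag
Hsph1: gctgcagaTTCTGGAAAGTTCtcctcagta
In Chordc1 there were 3 overlapping matches to the 3-unit motif, which together form a run of 5 alternating units, and in Hsph1 there was 1 match. A match is a run of letters and not a measured binding site. Apart from these members, 86 genes with the 3-unit motif in a listed promoter were measured, and at an unadjusted p under 0.05 in limma 3 of them (3.49%) were higher in lactating mice and 3 (3.49%) lower. The 3 higher genes were the mitochondrial chaperonin Hspd1, Calr4 and A330023F24Rik. Among all measured genes with a listed promoter the shares were 3.93% higher and 4.64% lower. Above the median intensity they were 2 of 49 (4.08%) higher and 0 lower, against 5.93% and 1.67%. The motif was found in 0 of 26 other cytosolic partners and paralogs with a listed promoter.

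Among the 10 members, which were chosen with this difference known, most were a little brighter in lactating mice, by up to 17.5%. Hspa4, Hsp90aa1 and Bag3 differed least from their virgin levels. With the brightest cluster of each gene, 9 of the 10 members had a positive log2 difference, lactating minus virgin, and the median was 0.08. Among all 19938 named genes 47.9% were positive (45.6% of all clusters) and the median difference was -0.00425. By limma, 5 of the 10 (Hspa4l, Hsph1, Stip1, Chordc1 and Ahsa1) passed an unadjusted p under 0.05 on the higher side and 0 on the lower side, where 3.86% of named genes passed on the higher and 4.83% on the lower side. Counted by cluster, 6 of the 14 were higher, where 3.26% of all clusters were higher and 4.69% lower. Since the members were picked from these results, nothing is read from those counts. The members are bright genes, 9 of them above the median intensity of all clusters. Among the 11462 named genes above that median, 67.5% had a positive difference, 5.88% were higher and the median log2 difference was 0.02. None of the 35556 clusters passed an adjusted p under 0.05 in limma (percent called 0, with 1160 clusters on the higher and 1668 on the lower side before adjustment), and the smallest adjusted p was 0.0715. All intensities below are the deposited linear PLIER values, log2 differences are of the intensity plus 16, and SE is the standard error from limma. In bulk tissue a difference in the number of cells and one in RNA per cell cannot be told apart.

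**Figure D1:**
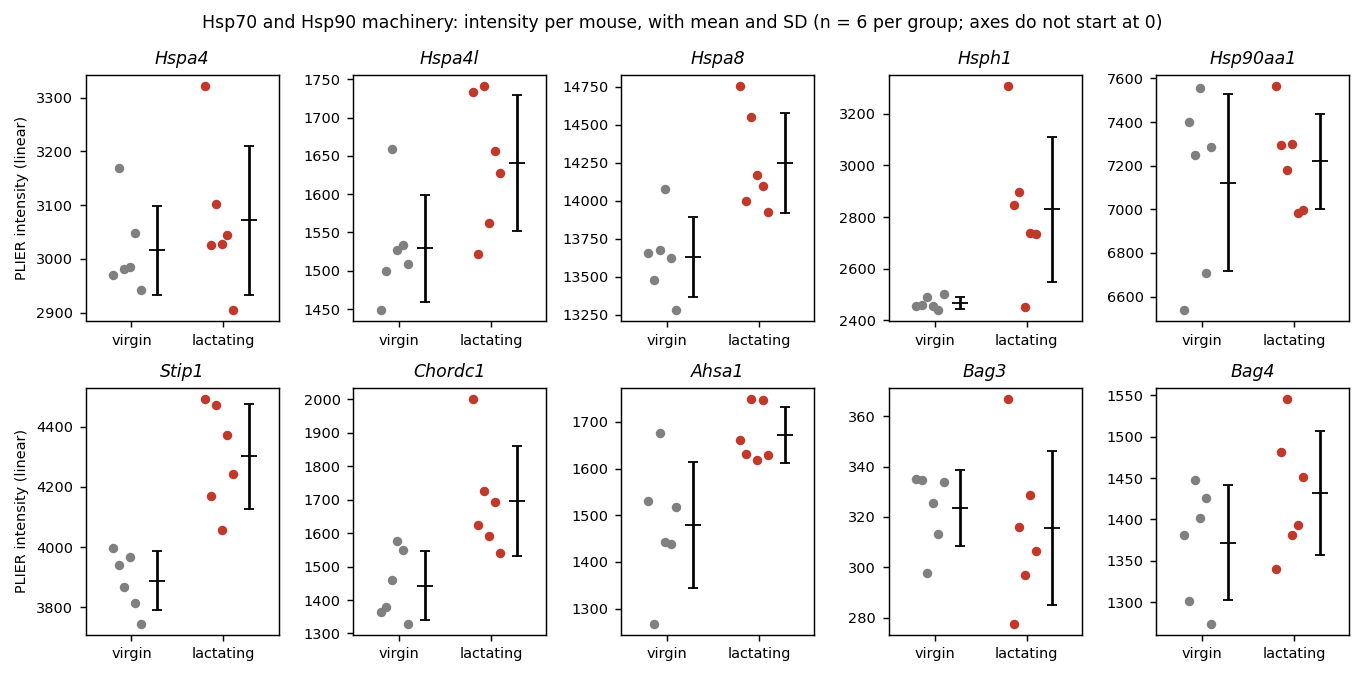
Deposited PLIER intensity of each member (vertical axes, linear, not starting at 0) in 6 virgin mice (grey points) and 6 lactating mice (red points), with the mean and SD of each group beside the points; for Hspa8 and Hsp90aa1 the brightest cluster is drawn. Stip1 is the 1 gene whose groups do not overlap, and the 6 virgin mice of Hsph1 lie between 2439 and 2502.

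Among the chaperones, Hspa8, the constitutive cytosolic Hsp70 that also strips clathrin from vesicles at synapses, was measured by 3 clusters. In cluster 10528021 its lowest, median and highest intensities were 13927, 14132 and 14756 in lactating mice and 13279, 13639 and 14076 in virgin mice. The groups overlapped only through virgin mouse 4, and 4 of 6 lactating mice were above every virgin mouse. The means were 14249 ± 330 (SD, n = 6) against 13631 ± 264 (SD, n = 6), a log2 difference of 0.06 (SE 0.0306). Cluster 10368025 gave 0.07 (SE 0.0313) and was below an unadjusted p of 0.05 in limma where cluster 10528021 was not, although the mice deviated alike in both (r = 0.949 over 12 mice within groups). Cluster 10584572 gave 0.04 (SE 0.0520), with means of 7815 ± 400 and 7613 ± 551, and tracked the other clusters less closely (r = 0.685 and 0.710). For Hspa8 the direction was thus the same in all 3 clusters, and the difference was 2.67% to 4.96% of the virgin level. In cluster 10584572, however, 0 of 6 lactating mice were above every virgin mouse. Which clusters read the Hspa8 or Hsp90aa1 gene itself was not checked. The brightest cluster stands for each in the counts and pairs of members.

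Hsp90aa1, the heat-inducible cytosolic Hsp90, showed overlapping groups in each of its 3 clusters. In cluster 10378848 the lowest, median and highest intensities were 6985, 7237 and 7567 in lactating mice and 6537, 7267 and 7555 in virgin mice. The virgin mice spread more widely, with virgin mice 1 and 5 below the other 4. The means were 7220 ± 219 against 7122 ± 405, a log2 difference of 0.02 (SE 0.0428). Clusters 10402615 and 10490946 gave 0.03 (SE 0.0394) and 0.01 (SE 0.0484), and the 3 clusters followed each other over the 12 mice at r = 0.933 to 0.960. Without virgin mouse 1 the difference turned to -0.00320 in cluster 10378848 and to -0.0181 in cluster 10490946, so no direction is given for Hsp90aa1.

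The Hsp110 family, relatives of Hsp70 that act as its nucleotide exchange factors, held the member with the most unequal spread. Hsph1, the heat-inducible Hsp110, had intensities of 2450, 2792 and 3309 (lowest, median, highest) in lactating mice and of 2439, 2457 and 2502 in virgin mice. Of the lactating mice 5 were above every virgin mouse, and lactating mouse 4 lay inside the virgin range. The means were 2829 ± 281 (SD, n = 6) and 2466 ± 23.9 (SD, n = 6), which is 14.7% higher in lactating mice, with a log2 difference of 0.19 (SE 0.0572). On the log2 scale the lactating SD was 10.2 times the virgin SD. Of the 11462 named genes above the median intensity, 2 had a ratio of this size or larger, Hsph1 included, and this comparison was chosen after the values were seen. Without lactating mouse 1, the highest, the ratio was 6.75 and the log2 difference 0.15. The coefficient of variation was 0.968% in virgin mice and 9.94% in lactating mice.

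The other Hsp110 members had smaller log2 differences, a contrast that was not tested. Hspa4l had intensities of 1522, 1642 and 1742 in lactating mice and 1448, 1518 and 1659 in virgin mice. The ranges overlapped, with lactating mice 1 and 3 above every virgin mouse. The means were 1641 ± 88.9 and 1529 ± 70.1, and the log2 difference of 0.10 (SE 0.0448) passed an unadjusted p under 0.05 in limma but lost it in 12 of 21 other settings. Hspa4 had means of 3072 ± 139 and 3016 ± 82.9 and a log2 difference of 0.03 (SE 0.0376). Its lactating values, from 2905 to 3322, enclosed the virgin values, and without lactating mouse 1 the difference was 0.00268.

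Stip1, also called Hop, is the scaffold that binds Hsp70 and Hsp90 at once and passes clients between them. It was the only member whose groups did not overlap. Its lowest, median and highest intensities were 4057, 4307 and 4492 in lactating mice and 3746, 3903 and 3997 in virgin mice. Every lactating mouse was above every virgin mouse, which was the case for 0.251% of named genes and 0.410% of those above the median intensity. The means were 4301 ± 174 (SD, n = 6) and 3888 ± 97.0 (SD, n = 6), which is 10.6% higher, with a log2 difference of 0.14 (SE 0.0360). At the cutoff used by the study, an unadjusted p under 0.0025 in limma, 0.155% of named genes were higher. By the annotation used here, Stip1 was also the only member to pass it. That call was lost without any one of lactating mice 1, 3, 5 and 6 and virgin mice 3, 5 and 6 and with replicate number as a block, while the log2 difference stayed between 0.13 and 0.16 when each mouse was left out in turn.

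The Hsp90 co-chaperones Chordc1 and Ahsa1 were higher as well. Chordc1, or morgana, is a zinc-binding partner of Hsp90 and had the largest log2 difference of the members. Its intensities were 1541, 1658 and 2001 (lowest, median, highest) in lactating mice and 1330, 1420 and 1576 in virgin mice. Of the lactating mice 5 were above every virgin mouse, lactating mouse 6 was inside the virgin range, and lactating mouse 1 stood well above the rest. The means were 1696 ± 164 and 1443 ± 102, or 17.5% higher, with a log2 difference of 0.23 (SE 0.0653) that was 0.18 without lactating mouse 1.

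Ahsa1, or Aha1, is the activator that speeds ATP hydrolysis by Hsp90. Its intensities were 1618, 1645 and 1749 in lactating mice and 1268, 1481 and 1677 in virgin mice. Here the lactating mice were the tighter group, and 5 of the 6 virgin mice were below every lactating mouse, with virgin mouse 3 the exception. The means were 1672 ± 60.5 and 1479 ± 135, and the log2 difference was 0.18 (SE 0.0573). Without virgin mouse 2, the lowest, it was 0.14, the smallest value when each mouse was left out.

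The BAG proteins Bag3 and Bag4 release nucleotide from Hsp70 through a shared BAG domain, and Bag3 is also known for steering clients to autophagy. Bag3 was the only member with a negative difference. Its intensities were 278, 311 and 367 in lactating mice and 298, 330 and 335 in virgin mice. The lactating range enclosed the virgin range, and the means of 315 ± 30.6 and 323 ± 15.1 gave a log2 difference of -0.04 (SE 0.0588). Bag4 had intensities of 1340, 1422 and 1546 in lactating mice and 1274, 1391 and 1448 in virgin mice, with means of 1432 ± 75.2 and 1372 ± 69.4 and a log2 difference of 0.06 (SE 0.0458). These ranges overlapped over most of their length.

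A further cluster, 10571045, is named Bag4 in the study's annotation and Gm17484 in the annotation used here. It averaged 284 ± 10.1 in the lactating and 242 ± 21.0 in the virgin group, a log2 difference of 0.22 (SE 0.0517), and 4 of 6 lactating mice were above every virgin mouse. The study lists Bag4 among its genes at an unadjusted p under 0.0025 in limma. The value given for Bag4 thus rests on which cluster carries its name, and Gm17484 was not counted as a member.

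**Figure D2:**
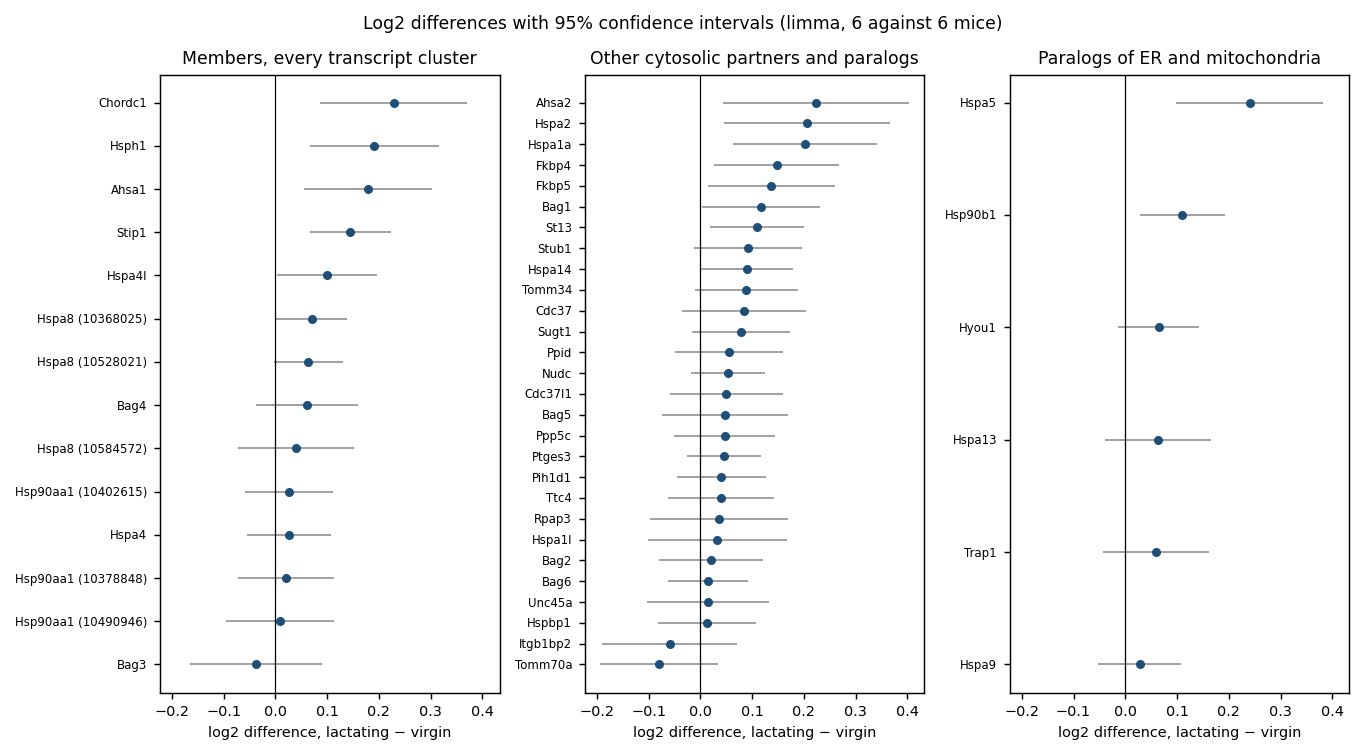
Log2 difference, lactating minus virgin (horizontal axes), with 95% confidence intervals from limma for the 14 member clusters, 28 other cytosolic partners and paralogs, and 6 paralogs of the endoplasmic reticulum and mitochondria, sorted by size. Of the members, Chordc1 lies highest at 0.23 and Bag3 lowest at -0.04, and in the other lists 26 of 28 and 6 of 6 genes lie above 0.

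Among the other genes of the cytosolic cycle most differences were positive, but most did not pass an unadjusted p under 0.05. Of 30 listed partners and paralogs, 28 had a cluster of their own. In limma, 7 of the 28 passed an unadjusted p under 0.05 on the higher side and 0 on the lower side, against the 3.86% and 4.83% of named genes given above. The higher count was 4 without virgin mouse 1, and none passed an adjusted p under 0.05 over all clusters. In all, 26 of 28 differences were positive and their median was 0.05. Of the 28, 25 were above the median intensity, where 67.5% of named genes were positive and 5.88% passed on the higher side. The heat-inducible Hsp70 gene Hspa1a averaged 373 ± 36.8 in the lactating and 321 ± 20.9 in the virgin group, a log2 difference of 0.20 (SE 0.0645, adjusted p = 0.619 in limma), with 5 of 6 lactating mice above every virgin mouse. Hspa2, another Hsp70, averaged 975 ± 36.7 against 849 ± 111, a log2 difference of 0.21 (SE 0.0738). Ahsa2, the paralog of Ahsa1, averaged 1153 ± 133 against 985 ± 103, with a log2 difference of 0.22 (SE 0.0831).

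Among co-chaperones that bind client-loaded Hsp90, both FKBP immunophilins of steroid receptor complexes were among the 7. Fkbp4 averaged 876 ± 67.0 against 789 ± 42.1, a log2 difference of 0.15 (SE 0.0554). Fkbp5, which is also a known glucocorticoid target, averaged 530 ± 23.7 against 481 ± 41.4, a log2 difference of 0.14 (SE 0.0568). St13, the Hsp70-interacting protein Hip, had a difference of 0.11 (SE 0.0419), and Bag1, the founding BAG protein, 0.12 (SE 0.0526). The Hsp90 co-chaperone p23, encoded by Ptges3, gave 0.05 (SE 0.0332) and did not pass. Hspa1b and Hsp90ab1 had no cluster that lists them alone, and no value is given for either alone. A brighter cluster that lists Hspa1a and Hspa1b together averaged 1147 ± 59.7 in the lactating and 1046 ± 50.9 in the virgin group. Its log2 difference was 0.13 (SE 0.0450), smaller than that of the cluster of Hspa1a alone. The 2 genes with negative differences were Tomm70a, a mitochondrial receptor for Hsp70 and Hsp90 clients, at -0.08 (SE 0.0524) and Itgb1bp2 at -0.06 (SE 0.0603), and neither passed.

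Paralogs in other compartments were compared for reference. Of 6 organelle paralogs, 2 were higher and 0 lower by the same cutoff. The endoplasmic reticulum Hsp70 gene Hspa5, or BiP, averaged 4087 ± 439 against 3445 ± 179, a log2 difference of 0.24 (SE 0.0655), with 5 of 6 lactating mice above every virgin mouse. Its Hsp90 counterpart Hsp90b1, or Grp94, averaged 3333 ± 164 against 3083 ± 55.0, a log2 difference of 0.11 (SE 0.0379). Hyou1, Hspa13, Trap1 and Hspa9 gave 0.06, 0.06, 0.06 and 0.03, and none of these passed. The heat shock factor genes Hsf2 and Hsf4 gave log2 differences of 0.06 (SE 0.0550) and 0.06 (SE 0.0437). Hsbp1, a binding partner of Hsf1, gave 0.01 (SE 0.0300). Hsf1 itself had no cluster that lists it alone, and no value is given for it. The study names Hsf1 among transcription factors with altered expression at its p cutoff of 0.05 in limma. Its gene set enrichment analysis also linked binding sites of HSF1 and HSF2 to genes higher in maternal mice. Both passed a corrected p under 0.05 in that enrichment analysis. The gene sets of that analysis were not used here. Of 7 small heat shock protein genes, 3 had a positive difference, the median was -0.04, and 1 was higher, Hspb8, a partner of Bag3, at 380 ± 42.1 against 334 ± 19.0 and a log2 difference of 0.17 (SE 0.0687). The adjusted p of each of these 10 higher genes (7 partners, 2 organelle paralogs and Hspb8) was 0.619 or 0.623 in limma.

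**Figure D3:**
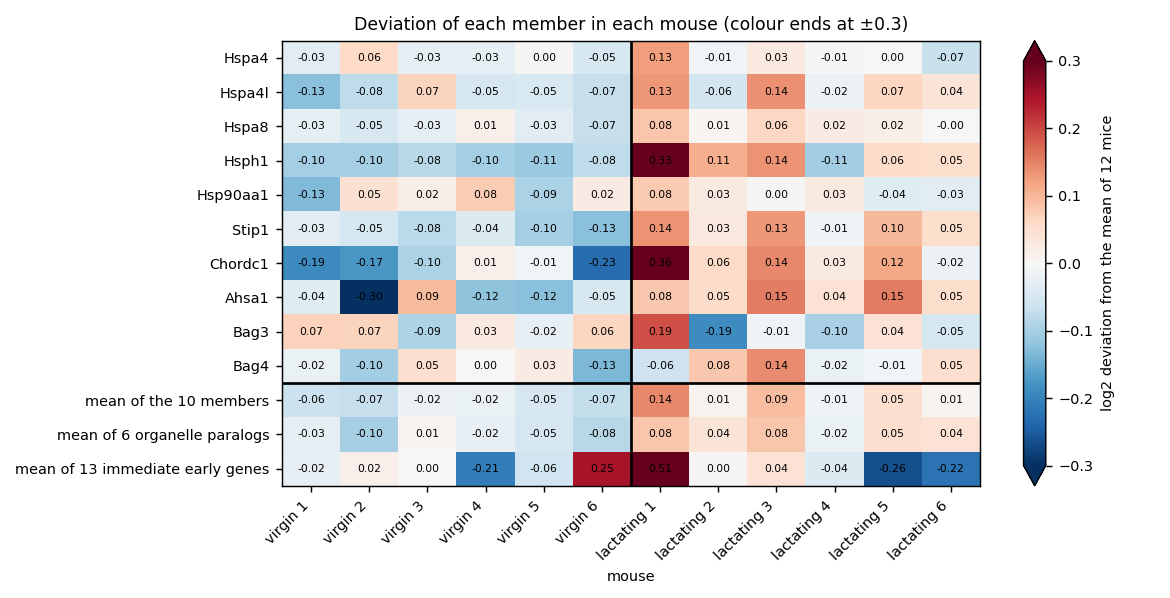
Log2 deviation of each member from its mean over 12 mice (colour and printed value), by mouse (columns), with the means of the members, of 6 organelle paralogs and of 13 immediate early genes in the lowest rows. Lactating mouse 1 has the highest mean over the members (0.14) and over the immediate early genes (0.51).

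Single mice stood high or low for several members at once. Within the lactating group, mouse 1 had the highest value for 7 of 10 members and mouse 3 for the other 3, while lactating mice 4 and 6 had the lowest for 3 members each. In the virgin group, mouse 6 had the lowest value for 5 members. Lactating mouse 1 was also the highest of its group for Hspa5 (4875) and Hspa1a (419), but not for every chaperone list. The mean log2 deviation of the 28 cytosolic partners and paralogs was highest in lactating mouse 3 (0.0519, mouse 1 0.0474). That of the 6 organelle paralogs was also highest there (0.0843, mouse 1 0.0833), while that of the 7 small heat shock proteins was highest in mouse 1 (0.0784). The mean log2 deviation of 13 immediate early genes, which neurons induce within minutes of stimulation, was 0.51 in lactating mouse 1 and between -0.26 and 0.04 in the other 5 lactating mice. The virgin mice lay between -0.21 and 0.25, and 0 of the 13 genes differed between the groups at an unadjusted p under 0.05 in limma. The part of these genes in the members' levels was not tested. Without lactating mouse 1, 4 of the 10 members were higher at an unadjusted p under 0.05, Hspa4l being the one that no longer passed. In that fit 1333 of all 35556 clusters were higher, where 1160 were higher with all 12 mice.

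Covariation between mice was measured within groups, after each group's mean log2 value was subtracted, so that the group difference itself does not enter the coefficients. The same 12 mice gave the difference that chose the members, so the coefficients are not independent of that choice. Of the 45 pairs of members 38 had a positive Pearson's r, and the median was 0.35. Hspa8 and Chordc1 moved together most closely, with r = 0.852 (permutation p = 0.00042, Benjamini-Hochberg adjusted p = 0.0189 over 45 pairs, 12 mice) and Spearman's rho = 0.818 (permutation p = 0.00315, adjusted p = 0.142). The coefficient was 0.892 within lactating mice and 0.793 within virgin mice, and 0.652 without the 2 mice farthest out in Hspa8. This was the 1 pair at an adjusted p under 0.05 by Pearson's r, and by rank 0 pairs were. The pair lost its call without any one of lactating mice 1, 3 and 6 and virgin mice 4 and 6, and under 3 other normalizations. At an unadjusted permutation p under 0.05 there were also Hspa8 with Stip1 (r = 0.679, rho = 0.720), Hspa4 with Chordc1 (r = 0.676, rho = 0.769) and Stip1 with Bag3 (r = 0.656, rho = 0.643), each with an adjusted p of 0.322.

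**Figure D4:**
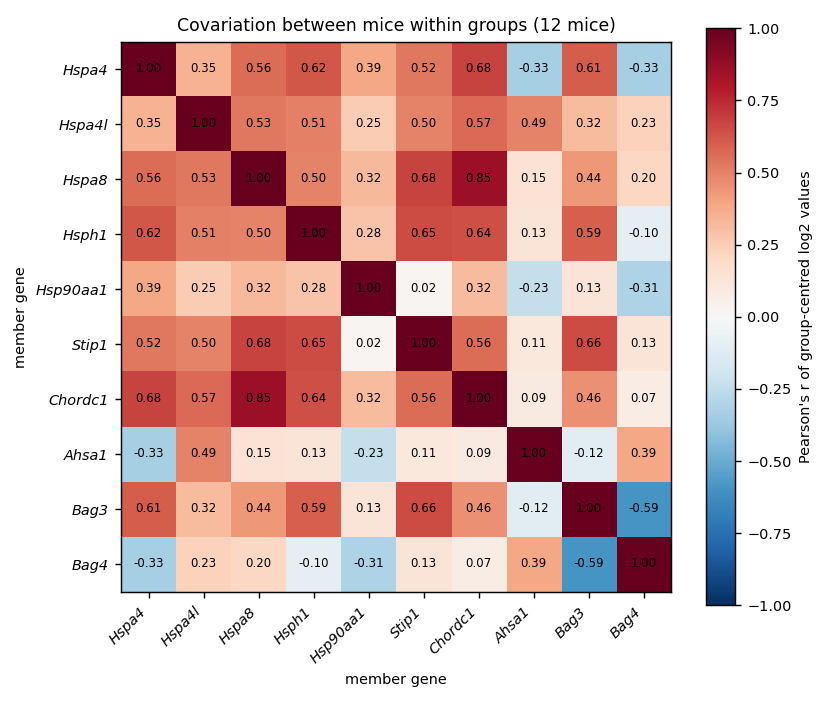
Pearson's r between members over 12 mice after subtraction of each group's mean log2 value (colour and printed value), members on both axes. Hspa8 and Chordc1 have the highest value (0.85), and Bag3 and Bag4 the lowest (-0.59).

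Coefficients were higher among the lactating than among the virgin mice, and this difference was not tested. The median r over the pairs was 0.66 within lactating mice and 0.04 within virgin mice, and 20 of 45 pairs were positive in both groups. These medians were not computed by group for other genes, so they are not read as a trait of the members. Without lactating mouse 1 the pooled median was 0.17. Ahsa1 and Bag4 had the lowest median coefficients to the other 9 members, 0.108 and 0.0740, where their medians to other named clusters above the median intensity were 0.128 and 0.317. The other 8 members had medians of 0.250 (Hsp90aa1) to 0.560 (Chordc1) to the members and of -0.172 (Bag3) to 0.129 (Hspa8) to those clusters. Bag3 and Bag4, which share the BAG domain, went opposite ways at r = -0.591 (rho = -0.608, adjusted p = 0.322).

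The clusters on the array most like Hspa8, Hsph1 and Hsp90aa1 within groups were picked as the highest of up to 21788 coefficients over the same 12 mice, so their size is a description only. For Hspa8 these were Zfp882 (r = 0.926), the exchange factor gene Arhgef7 (0.924) and Ythdf3 (0.910), a reader of methylated RNA. For Hsph1 they were Noxred1 (0.918), the growth factor gene Hbegf (0.912) and the chromatin remodeler Hells (0.888). Hbegf, like Hsph1, was highest in lactating mouse 1, at 662 against 479 to 544 in the other 11 mice. For Hsp90aa1 they were the lens crystallin gene Crygb (0.877), Olfr945 (0.870) and Cct8 (0.869), a subunit of the cytosolic chaperonin that folds actin and tubulin.

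The median intensity per array ran from 320 to 339 and the log2 values of the arrays correlated at 0.987 to 0.994. Of 11 septal neuron markers 11 were measured, 10 above the median intensity, and 0 differed at an unadjusted p under 0.05 in limma. The 5 striatal markers measured all had negative log2 differences, from -0.23 to -0.08 with a median of -0.17, and 0 passed that cutoff. Of 7 excitatory markers of cortex and hippocampus 5 had positive differences and 0 passed. Their differences ran from -0.11 to 0.74 with a median of 0.05, and the highest was also the highest of all 19938 named genes. Lactating mouse 4, in which Hsph1 lay inside the virgin range, had the highest mean deviation for 7 excitatory markers of cortex and hippocampus (1.06, other lactating mice -0.63 to 0.27, virgin mice -0.39 to 0.30) and the lowest for 5 striatal markers (-0.47, other lactating mice -0.20 to 0.24, virgin mice 0.00104 to 0.303). The part of these tissue differences in the members' levels was not tested. Without lactating mouse 4 the log2 difference of Hsph1 was 0.23, and 5 of 10 members passed an unadjusted p under 0.05 on the higher side, of which 2 rather than 1 passed 0.0025. In that fit 1075 of all 35556 clusters were higher at an unadjusted p under 0.05 in limma.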

How the data were processed

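Total RNA (200 ng per mouse) was labelled and hybridised to Affymetrix mouse gene arrays, 1 per mouse. The deposited values are linear intensities, which the authors obtained with the PLIER algorithm of Affymetrix Power Tools 1.12.0, background being corrected by probe GC content. The genome build of the array annotation is not given in the sources used here. Groups were taken from the labels, and all mice are separate animals. From the deposited intensities the log2 of the value plus 16 was computed, and lactating was compared with virgin over all 35556 clusters without a filter, two-sided, with limma 3.58.1 in R 4.3.3, with Benjamini-Hochberg adjustment over all clusters. The added 16 compresses dim clusters, and 496 have a mean intensity below it. The number of arrays limits the precision.

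The members, gene lists and tests were chosen with earlier results of these data known. Genes were matched by their only symbol in the annotation, with the brightest cluster standing for a gene in counts. The genes named are all 10 members, partners and small heat shock proteins at an unadjusted p under 0.05 plus Hspa1a, Hspa2, Fkbp4, Fkbp5 and Ptges3, all organelle paralogs and heat shock factors measured, and the 3 clusters most like Hspa8, Hsph1 and Hsp90aa1. Tomm70a, Itgb1bp2, Gm17484, Hspd1, Calr4 and A330023F24Rik were named after their values were seen. Marker lists for glia, vessels, choroid plexus and general neurons held 2 lower microglia genes, and 1 higher and 1 lower gene of choroid plexus and ependyma, at an unadjusted p under 0.05, and 0 in the others.

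Correlations within groups were tested with 100000 permutations, two-sided, of mice within groups. RNA was extracted in matched pairs whose members are not given. Residuals of mice with the same replicate number correlated at -0.027 to 0.25, above 0.1 for 2 of 6 numbers, so the numbers were not taken as pairs. Results were recomputed on the linear scale, with 1 added in place of 16, over the brighter part of the clusters only, under 3 other normalizations, with a robust variance trend, with weighted arrays, with the replicate number blocked and without each mouse in turn.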

Additional observations from a re-analysis of the deposited data

How the results depend on the processing

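Of the 10 members, 4 to 6 were higher at an unadjusted p under 0.05 in limma under every alternative run, and 4 to 5 with any mouse left out. Of the 14 clusters, 4 to 6 were higher with any mouse left out. At an unadjusted p under 0.0025 the count of 1 became 2 with clusters above the median intensity or with each array's median subtracted, 3 with a variance trend and robust estimation, and 0 to 2 with a mouse left out (0 without lactating mouse 1, 3, 5 or 6 or virgin mouse 5 or 6, and 2 without lactating mouse 4). Hsp90aa1 turned negative in cluster 10378848 without virgin mouse 1 (-0.00320) and in cluster 10490946 without lactating mouse 1 (-0.00689), virgin mouse 1 (-0.0181) or virgin mouse 5 (-0.0120), the ranges over left-out mice being -0.00320 to 0.0384 and -0.0181 to 0.0289. Hspa8 cluster 10368025 lost an unadjusted p under 0.05 in 10 of 21 alternatives and cluster 10528021 gained it in 8. The 7 higher partners became 4 to 10 with a mouse left out, 4 being the count without virgin mouse 1. The 1 covarying pair became 0 with quantile normalization, subtraction of the array median or cyclic loess, and 0 to 2 with a mouse left out, 2 being without virgin mouse 2, while 35 to 39 pairs stayed positive. Over all clusters the 1160 higher became 2027 and the 1668 lower became 992 with each array's median subtracted, which moved the median difference of all clusters by 0.0236. With clusters above the median intensity 501 were lower. With a mouse left out 782 to 1783 were higher (1783 without virgin mouse 4) and 1054 to 2599 lower (1082 without lactating mouse 3, 1054 without virgin mouse 2, 2599 without virgin mouse 3). At an adjusted p under 0.05 the count of 0 became 1 with linear intensities, clusters above the median intensity, quantile normalization or cyclic loess. The cause of these shifts was not tested.

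With replicate number as a block, 5 members passed an unadjusted p under 0.05 on the higher side and 0 passed 0.0025, 6 partners were higher, and 1159 clusters were higher and 2035 lower. The mice share only a number, so this is no paired analysis.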
